A study of Mus musculus with 111 samples.

Results

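Potassium channel genes were described across striatal astrocytes, microglia and the remaining cells of 2 mouse models of Huntington's disease. The genes taken were all those with a probe set of 1 gene symbol beginning with Kcn and a further letter, without Kcnj8, Kcnj10, Kcnj16, Kcnk1 and Kcnk13, which left 79 of the 18194 genes measured. The rule uses gene symbols alone. Where a gene had more than 1 probe set, the brightest by its mean across the 111 arrays was used. Of the 79 genes, 76 code for proteins and 3 are long non-coding RNAs (Kcnq1ot1, Kcnmb4os1 and Kcnmb4os2). By family there were 13 pore subunits of the Shaker, Shaw and Shal voltage-gated channels (Kv), 9 silent Kv subunits, 3 KCNQ channels and 6 channels of the EAG, ERG and ELK type. The other protein-coding genes were 8 calcium- or sodium-activated channels, 12 inward rectifiers, 10 two-pore-domain channels and 15 auxiliary subunits. No Shab (Kcnb) gene was among the 79.

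Potassium channels let potassium ions cross the cell membrane down their gradient. Voltage-gated and calcium-activated channels repolarise excitable cells and set their firing, whereas inward rectifiers and two-pore-domain channels hold the resting potential, and in glia they take part in clearing potassium from around active neurons. Auxiliary subunits such as the Kvβ proteins (Kcnab), the KChIP proteins (Kcnip), the Kcne proteins and the β subunits of the BK channel (Kcnmb) change the gating or the surface expression of a pore.

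Huntington's disease is caused by an expanded CAG repeat in the huntingtin gene. R6/2 mice carry a transgene of a fragment of human huntingtin with an expanded repeat under the human promoter, so that the mutant fragment is made in many cell types, and zQ175 mice (labelled Q175) carry an expanded repeat in their own huntingtin gene. Controls were wild-type (WT) mice. Sex, strain and repeat length were not given in the sources used here. Cells were sorted on the glutamate transporter GLT1 and on CD11b into astrocytes (GLT1+/CD11b-), microglia (GLT1-/CD11b+) and cells with neither marker, called the negative fraction. For each fraction, 5 R6/2 and 5 WT pools were taken at 6 weeks of age and 6 R6/2 and 5 WT pools at 12 weeks. For zQ175, 4 pools of each genotype were taken at 6 months and as many at 12 months, which gave 111 arrays in 24 groups. A sample held the pooled striata of the mice of 1 genotype in a litter, with the subventricular zone removed. Each sample number occurs in all 3 fractions, but the labels do not state that a number marks 1 pool. Values are log2 expression, so a difference of 1 is a doubling of the signal, and values of different genes are not comparable because probes differ.

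The fractions differed from their names in part. Mean astrocyte markers (11 genes) were between 12.16 and 12.62 in the sorted astrocytes, and mean microglia markers (9 genes) between 12.20 and 12.67 in the microglia. The astrocyte samples also held oligodendrocyte markers at 11.93 to 12.68, a level that the negative fraction shared. The negative fraction held endothelial and mural markers at 10.46 to 12.58. In the WT negative fraction the astrocyte markers were at 8.98 to 10.18 at 6 weeks and at 7.86 to 8.56 at 12 weeks, while in R6/2 they were at 9.76 to 10.14 and at 9.29 to 10.56. The microglia of zQ175 sample 31 stood apart, with endothelial and mural markers at 10.29 and young neuron and progenitor markers at 9.93, and the negative library of that sample had microglia markers at 10.01. WT samples 12 and 20 lacked the expression of Y-linked genes that the other samples had, in all 3 fractions. In sorted pools, fewer cells of a type and less RNA per cell cannot be told apart.

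Dim genes were left untested: the mean across the arrays compared had to be at or above the 40th percentile of the probe set means, which was 5.40 to 5.66. Of the 79 genes, 58 were tested in at least 1 of the 6 fits of genotype and 15 in all of them. The 21 that were tested in none included Kcnj1, Kcnj2, Kcnj5, Kcnj6 and Kcnj15 among the inward rectifiers, Kcnh1, Kcnh5, Kcnh7 and Kcnh8 among the EAG, ERG and ELK channels, Kcnk4 and Kcnk16 among the two-pore-domain channels, and both Kcnmb4 antisense RNAs. A gene was called when its limma p-value was below 0.05 after Benjamini-Hochberg adjustment across every tested gene. The limit is a filter level and not a measured background, so where the lower group lies under it the size of a difference is approximate. For some of these genes the difference is also given with every value under the limit raised to it. The map of group means shows the 58 tested genes.

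**Figure D1:**
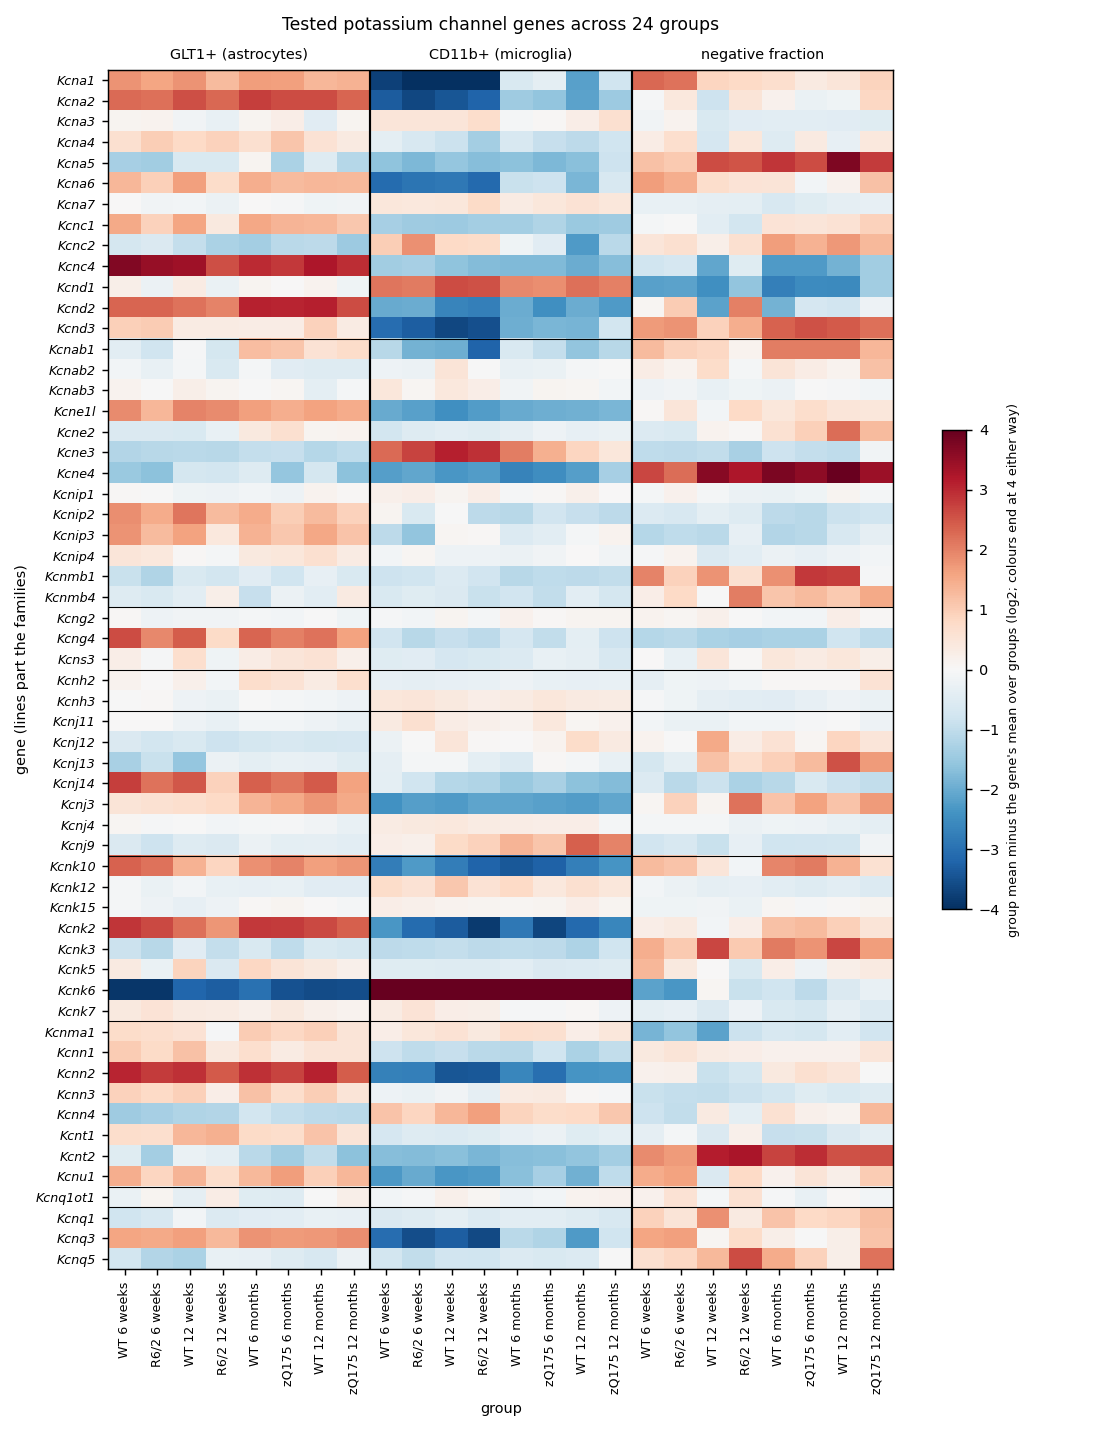
Group means of the 58 tested potassium channel genes (rows, ordered by family) in the 24 groups (columns, by fraction, age and genotype), each as the difference from the mean of that gene over the groups on the log2 scale. The columns divide into 3 blocks by fraction, with Kcnk6 high in microglia, Kcnc4, Kcnj14 and Kcnn2 high in astrocytes and Kcne4 and Kcna5 high in the negative fraction.

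Promoter sequences of RefSeq (build GRCm38.p6) were available for 59 of the 79 genes, in 81 windows of 250 bases before a gene's start. Of the 19 genes that were lower in R6/2 astrocytes at 12 weeks, 12 had a window. Of the 13 that were higher in the R6/2 negative fraction at that age, 10 had one. The 4 windows below belong to genes on which the results turn: Kcnk5 and Kcna6 were lower in R6/2 astrocytes, and Kcnd2 and Kcnmb4 were higher in the R6/2 negative fraction. Capitals mark the GC box, GGGCGG on either strand, which is bound by Sp-type factors.
Kcnk5: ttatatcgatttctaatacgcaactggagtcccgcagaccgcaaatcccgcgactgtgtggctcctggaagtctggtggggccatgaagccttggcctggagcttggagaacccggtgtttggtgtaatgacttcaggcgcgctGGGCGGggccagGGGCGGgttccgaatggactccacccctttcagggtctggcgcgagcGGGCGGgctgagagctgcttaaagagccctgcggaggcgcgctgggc
Kcna6: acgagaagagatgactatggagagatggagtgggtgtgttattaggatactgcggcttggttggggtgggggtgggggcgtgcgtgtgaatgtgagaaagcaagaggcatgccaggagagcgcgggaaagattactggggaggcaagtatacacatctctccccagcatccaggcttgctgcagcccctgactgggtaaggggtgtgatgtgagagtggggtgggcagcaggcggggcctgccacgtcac
Kcnd2: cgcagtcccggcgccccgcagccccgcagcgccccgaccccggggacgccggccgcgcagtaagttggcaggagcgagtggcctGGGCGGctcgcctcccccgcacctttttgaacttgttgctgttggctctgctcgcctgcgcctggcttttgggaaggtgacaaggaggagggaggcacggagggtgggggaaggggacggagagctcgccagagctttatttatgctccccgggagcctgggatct
Kcnmb4: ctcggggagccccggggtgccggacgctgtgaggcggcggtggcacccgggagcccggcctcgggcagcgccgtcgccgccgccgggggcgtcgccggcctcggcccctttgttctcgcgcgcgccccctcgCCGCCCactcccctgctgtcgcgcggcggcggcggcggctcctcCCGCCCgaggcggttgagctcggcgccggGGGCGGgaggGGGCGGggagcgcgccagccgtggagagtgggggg
The windows lie at chr14:20181783-20182032 (minus strand, Kcnk5), chr6:126740675-126740924 (minus strand, Kcna6), chr6:21215096-21215345 (plus strand, Kcnd2) and chr10:116473524-116473773 (minus strand, Kcnmb4), each directly upstream of the start of its gene. Kcnk5 had 3 GC boxes, Kcnmb4 had 4, Kcnd2 had 1, and Kcna6 had 0.

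The GC box was present in 46.9% of the windows of potassium channel genes and in 32.7% of all 32851 windows. Counted by gene, it was in a window of 37 of the 59 channel genes. By gene it was also in 9 of 12 lower in R6/2 astrocytes and 6 of 10 higher in the negative fraction. Counted by window, these were 38 of 81, 9 of 19 and 6 of 13, so both lists were near the share of all channel gene windows. In both lists were 5 genes (Kcnc4, Kcnip3, Kcnma1, Kcnq3 and Kcnu1). The palindromic E-box CACGTG was in 6.17% of the channel gene windows and 6.02% of all windows. TATAAA, on either strand, was in 2.47% and 12.4%. The cAMP response element TGACGTCA was in 0 of the 81 windows against 1.55% of all, and TTCAGCACC, the left part of the RE1 element, in 0 against 0.301%. A match describes letters only, and no overlap between these motifs was removed.

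In WT mice the 3 fractions expressed different sets of potassium channel genes. Of the 36 tested in a fit of all WT arrays with age as an additive term, 18 were higher in astrocytes than in both other fractions, 5 in microglia and 9 in the negative fraction, or 50%, 13.9% and 25% of them. Of all 12477 genes tested, 26%, 30.3% and 18.2% were highest in these fractions in that order. The shares called, 31 of 36 between astrocytes and microglia, 32 of 36 between astrocytes and the negative fraction and 31 of 36 between microglia and the negative fraction, stand beside 85.6%, 75.9% and 83.7% of all genes tested. Most genes of any kind differed between these cells, so the counts are near the background in both comparisons with microglia and above it in the other, and the genes tested include those that passed the level filter through 1 fraction.

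Among the genes highest in astrocytes, Kcnc4, the gene of the fast-inactivating channel Kv3.4, ranged from 10.36 to 11.54 in the 18 WT astrocyte samples with a median of 10.90. It lay between 5.20 and 6.41 in microglia and between 4.97 and 7.48 in the negative fraction. The WT astrocytes were thus above every sample of both other fractions, by 5.04 ± 0.13 (SE) and 5.08 ± 0.13 in the limma fit, or by 4.99 and 4.87 with values under the limit of 5.64 raised to it. Kcnn2, which codes for the small-conductance calcium-activated channel SK2, was higher in astrocytes by 5.80 ± 0.13 than in microglia and by 2.99 ± 0.13 than in the negative fraction. Kcnj14, the inward rectifier Kir2.4, was higher by 3.65 ± 0.11 and 3.37 ± 0.11 (3.12 and 3.12 with raised values). Kcnd2, the pore of the A-type channel Kv4.2, was higher by 4.81 ± 0.22 and 3.79 ± 0.22 (3.68 and 3.31 with raised values), with astrocyte samples from 8.25 to 10.30 and negative samples from 3.86 to 7.30. The other genes named in this group were Kcna2 (Kv1.2), Kcnk2 (the mechanosensitive two-pore channel TREK-1), Kcnip3 (KChIP3) and Kcne1l (a Kcne subunit), whose smaller difference of the pair lay between 1.61 and 2.78. These astrocyte samples also held the oligodendrocyte markers given above, and the part of oligodendrocytes in these levels was not tested.

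Microglia stood out by Kcnk6, the two-pore-domain channel TWIK-2. It lay between 10.80 and 11.89 in the 18 WT microglia samples (median 11.46), between 2.69 and 4.12 in astrocytes and between 4.19 and 7.86 in the negative fraction. No sample of either other fraction overlapped the microglia. The differences were 7.94 ± 0.15 and 5.39 ± 0.15, but every astrocyte sample lay under the limit, and with values raised to it they were 5.74 and 5.14. Kcnd1, which codes for the A-type channel Kv4.1, was higher in microglia than in astrocytes by 2.02 ± 0.11 and than in the negative fraction by 4.69 ± 0.11. Kcnn4, the intermediate-conductance calcium-activated channel that immune cells use, was higher by 2.18 ± 0.18 and 1.02 ± 0.18. Kcnh3 and Kcnj11, the latter the pore of the ATP-sensitive channel Kir6.2, were higher by 0.35 to 0.65.

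In the negative fraction, Kcne4, a Kcne subunit that inhibits Kv channels, was at 9.38 to 11.32 against 5.14 to 7.85 in astrocytes and 3.48 to 5.84 in microglia. Its differences were 4.34 ± 0.19 and 5.80 ± 0.19 (4.26 and 4.90 with raised values). Kcna5 (Kv1.5) was higher by 3.14 ± 0.23 and 4.13 ± 0.23 (2.48 and 2.70 with raised values), and Kcnk3, the acid-sensitive two-pore channel TASK-1, by 2.84 ± 0.11 and 3.25 ± 0.11. Kcnq1, Kcnq5, Kcnab1, Kcnd3 and Kcnj12 completed the 8 named genes, with a smaller difference between 0.55 and 1.63. Of the 9 genes called highest in the negative fraction, Kcnab2 had the smallest margin, 0.44 ± 0.14.

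The first genotype comparison asked which channel genes differ in R6/2 astrocytes. At 6 weeks only Kcnk5 was called, lower, among 38 tested, beside 1.2% of all genes called and 0.369% called lower. Kcnk5 codes for TASK-2, a two-pore-domain channel opened by alkaline pH. It was at 6.46, 6.52, 5.96, 6.69 and 6.40 in WT samples 1 to 5 and at 5.71, 5.89, 5.79, 5.76 and 5.75 in R6/2 samples 6 to 10. The groups did not overlap, although WT sample 3 lay close to the R6/2 samples. The log2 fold change was -0.62 ± 0.11 (limma adjusted p = 0.00383). The next lowest p belonged to Kcne1l, at -0.56 ± 0.15 (limma adjusted p = 0.0795).

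At 12 weeks 20 of the 38 tested channel genes were called in R6/2 astrocytes, or 52.6%, beside 28.7% of all genes. Of these, 19 were lower, beside 14.2% of all genes lower, and 1 was higher, beside 14.5%. The median log2 fold change of the 38 was -0.44, and that of all genes tested was 0.00. Without the filter on dim genes, 25 of all 79 were called and 22 of them lower, beside 19.4% called and 9.81% lower among all 18194 genes. Members of all families but the EAG, ERG and ELK channels were among the lower ones. In 9 of the 20 called genes, or 45%, no R6/2 value overlapped the WT values, beside 47.3% of all genes called, so this share was near the background.

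Kcnk5 had the lowest p. Its WT values at 12 weeks were 6.99, 6.69, 6.99, 7 and 7.10 (samples 12, 14, 16, 18 and 20), and its 6 R6/2 values lay between 5.33 and 5.62 with a median of 5.49. Every R6/2 sample was more than 1 below every WT sample. The R6/2 median lay under the limit of 5.52 in this fit, so the size of the difference is approximate. The log2 fold change was -1.47 ± 0.10 (limma adjusted p = 6.56e-09). The difference from the effect at 6 weeks was itself called, at -0.85 ± 0.15 (limma adjusted p = 0.00961), the only channel gene called among 38 in that comparison, beside 1.15% of all genes called and 0.418% called lower. Without WT samples 12 and 20 that difference was -0.79 (limma adjusted p = 0.063) and no longer called, whereas the effect at 12 weeks was -1.41 (limma adjusted p = 8.06e-07). A further probe set of Kcnk5 was below the dim limit in astrocytes (-0.09 ± 0.11).

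Of the inward rectifiers, Kcnj14 was called. It was at 8.59, 8.40, 8.88, 9.08 and 9.03 in WT and between 6.88 and 7.71 in the 6 R6/2 samples (median 7.21), with R6/2 sample 13 the highest. The groups lay apart, and the log2 fold change was -1.57 ± 0.20 (limma adjusted p = 9.54e-06). At 6 weeks it was at -0.57 ± 0.20 (limma adjusted p = 0.217). Of the other 2 inward rectifiers tested, Kcnj3 was at 0.14 ± 0.26 and Kcnj11 at -0.09 ± 0.09, neither called.

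Voltage-gated pores came next, with 5 of 9 tested Shaker, Shaw and Shal genes lower. Kcna6 (Kv1.6) was between 10.49 and 10.80 in WT and between 9.14 and 10.03 in R6/2 (median 9.79), with sample 19 lowest, at -0.92 ± 0.13 (limma adjusted p = 3.16e-05). Kcnc1, the gene of the fast channel Kv3.1, was at -1.19 ± 0.30 (limma adjusted p = 0.00616), and WT sample 14 at 6.73 lay within the R6/2 range of 6.18 to 7.34. Kcnc4 fell without overlap, at -0.81 ± 0.17, and its second probe set gave -0.72 ± 0.11. Kcnd1 (-0.59 ± 0.17) and Kcna1, the gene of Kv1.1 (-0.53 ± 0.16), fell with overlapping groups. Kcng4, a silent subunit that forms channels only together with other Kv pores, was at 5.85 to 7.68 in WT and at 4.35 to 5.56 in R6/2 (median 5.04), without overlap and with a log2 fold change of -1.64 ± 0.35 (limma adjusted p = 0.00155). With values under the limit of 5.52 raised to it that difference was -1.05. Kcnq3, which carries part of the M-current, was the lowest in size among them at -0.34 ± 0.11.

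Calcium- or sodium-activated channels, a family in which Kcnu1 was counted, were lower in 5 of 7 tested genes. All 3 genes of the small-conductance family fell, with log2 fold changes of -0.78 ± 0.16 for Kcnn1 (SK1), -0.46 ± 0.15 for Kcnn2 (SK2) and -0.70 ± 0.19 for Kcnn3 (SK3). R6/2 and WT values of Kcnn1 and of Kcnn3 did not overlap, and those of Kcnn2 did. Kcnma1, the pore of the large-conductance BK channel, was at -0.63 ± 0.15 with the probe set that stood for it. Its other probe sets above the dim limit gave 0.01 ± 0.26 and 0.26 ± 0.17, and with the mean of its probe sets the call was lost (-0.13), so the 3 probe sets above the limit did not move together. Kcnu1, the pH-sensitive channel Slo3 known from sperm, was at -0.66 ± 0.22.

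Auxiliary subunits were lower in 4 of 8 tested genes. Kcnip3 codes for KChIP3, which binds Kv4 pores and is also known as the transcriptional repressor DREAM. It was at 9.32, 10.06, 9.67, 9.25 and 9.48 in WT and between 7.78 and 8.64 in R6/2 (median 8.46). No values overlapped, at -1.18 ± 0.17 (limma adjusted p = 4.1e-05), and its other probe set gave -1.98 ± 0.20. Kcnip2 (KChIP2) was at -0.85 ± 0.23 without overlap, and the Kvβ genes Kcnab1 and Kcnab2 at -0.66 ± 0.17 and -0.54 ± 0.13 with overlap. Kcnd2, the Kv4 pore that KChIP proteins bind, was at -0.20 ± 0.30 and not called. The non-coding Kcnq1ot1, an antisense RNA of the imprinted Kcnq1 region, was the 1 higher gene (0.65 ± 0.19), and Kcnq1 itself was below the level filter in astrocytes.

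**Figure D2:**
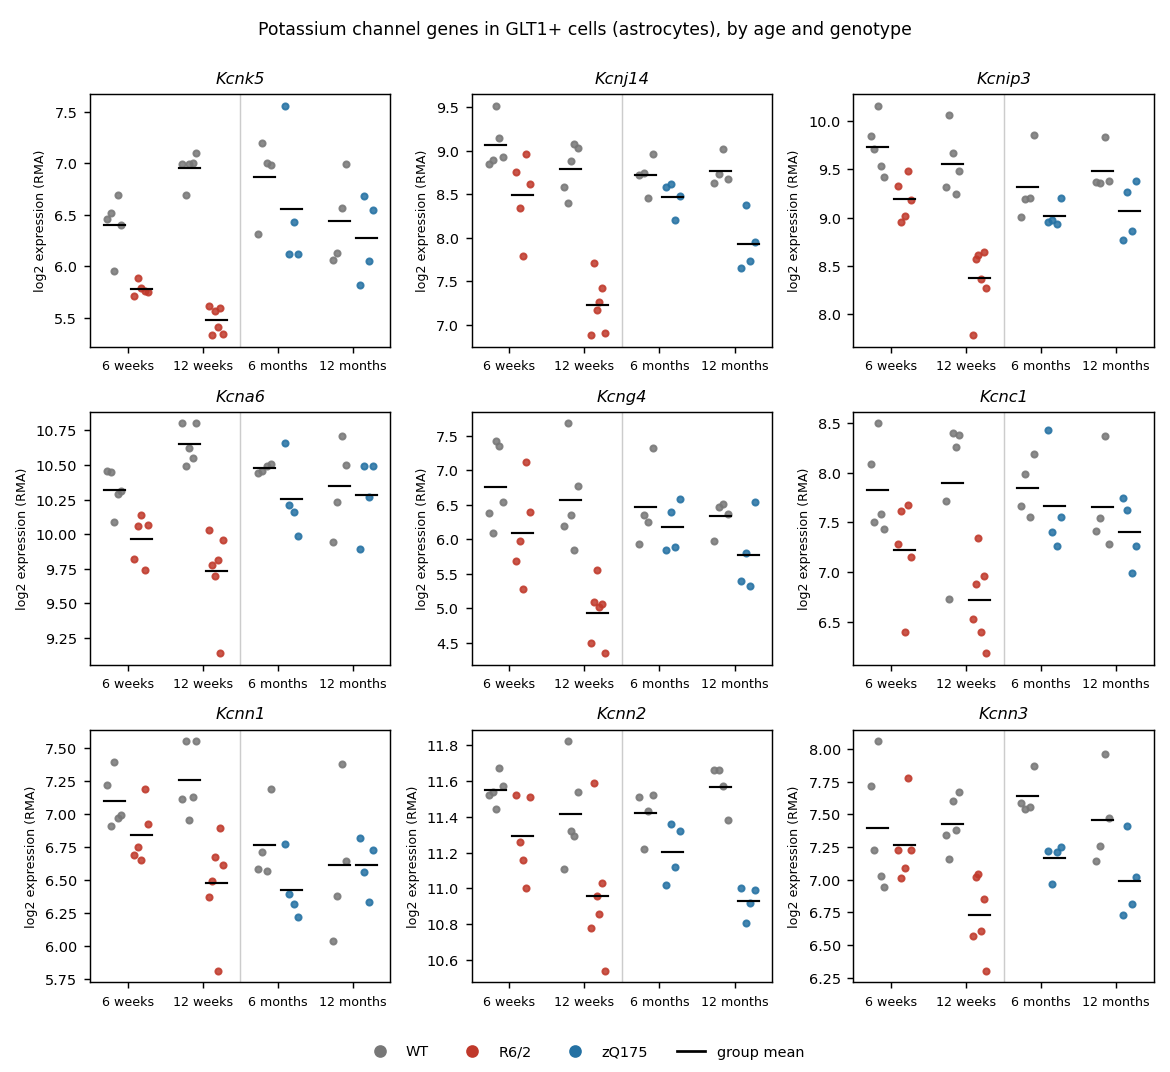
Log2 expression of 9 channel genes in astrocytes by age (each point a sample, black lines group means). R6/2 samples at 12 weeks lie below all WT samples for Kcnk5, Kcnj14, Kcnip3, Kcna6, Kcng4, Kcnn1 and Kcnn3, and zQ175 samples at 12 months lie below all WT samples for Kcnj14 and Kcnn2.

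Some cell type markers moved with genotype in these astrocytes. The endothelial and mural markers were at 8.25 to 11.04 in R6/2 and 9.69 to 10.78 in WT at 12 weeks, with 2 of 12 called lower (median -0.79), and 4 of 9 oligodendrocyte markers were lower (median -0.27). Of the 11 astrocyte markers, 2 were called lower (median -0.14). Of 5 young neuron and progenitor markers, Dcx (2.46 ± 0.44) and Dlx2 (0.72 ± 0.16) were higher (median 0.50), with a mean over the list of 6.63 to 7.49 in R6/2 and 6.52 to 6.95 in WT. Of 4 oligodendrocyte precursor markers Pdgfra was higher (1.78 ± 0.30) and Cspg4 lower (-0.64 ± 0.18), and of 7 pan-neuronal markers Tubb3 was higher (1.09 ± 0.34). Of 5 ependymal markers 1 was higher and 2 were lower (median -0.31), among them Ccdc153 (-1.45 ± 0.33), and of 6 medium spiny neuron markers 1 was lower. With the endothelial and mural marker mean as a covariate, 23 channel genes were called, 19 of them called without it as well, and Kcnk3 (-0.51 ± 0.18) was not (-0.32, limma adjusted p = 0.099). Without WT samples 12 and 20, 17 were called, 16 of them among the 20, and Kcna1 (-0.47), Kcnn3 (-0.65), Kcnq3 (-0.18) and Kcnu1 (-0.52) were not (limma adjusted p = 0.0935, 0.051, 0.25 and 0.169). Without 1 array at a time, between 17 and 21 were called. The shares of all genes called under these alternatives are not given. The part of these markers in the channel genes' differences was not tested otherwise. Calls that 1 array ended were those of Kcnk3 (R6/2 samples 11, 13, 15 and 17, WT samples 14, 16 and 18), Kcnu1 (R6/2 samples 17, 19 and 21, WT samples 12, 16, 18 and 20), Kcnn2 (R6/2 samples 11 and 21, WT samples 14 and 20), Kcnq3 (R6/2 sample 19, WT samples 12 and 20) and Kcnq1ot1 (WT sample 16). Their estimates ranged from -0.62 to -0.44 for Kcnk3, from -0.78 to -0.50 for Kcnu1, from -0.58 to -0.36 for Kcnn2, from -0.40 to -0.25 for Kcnq3 and from 0.53 to 0.80 for Kcnq1ot1.

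Other genes of membrane excitability and potassium transport, fixed as lists, gave a mixed picture in the same comparison. Of 11 tested genes of the sodium-potassium pump and potassium-coupled transport, 1 was higher and 2 lower. The pump regulator Fxyd6 was higher by 3.15 ± 0.23 (limma adjusted p = 1.26e-08), and the pump subunit genes Atp1b3 (-0.53 ± 0.07) and Fxyd1 (-0.40 ± 0.09) were lower. Of 5 tested voltage-gated sodium channel genes, Scn2a (1.12 ± 0.21) and Scn3a (1.38 ± 0.36) were higher and Scn4b (-1.31 ± 0.35) lower. Of 16 tested voltage-gated calcium channel genes, 1 was higher and 3 lower, among them Cacna1c, the pore of the channel Cav1.2 (-1.29 ± 0.29). Of 7 tested partners outside the Kcn symbols, Hcn2, a pacemaker channel gene, was lower (-0.70 ± 0.17). The medians of these lists lay between -0.32 and -0.03, against 0.00 for all genes.

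In zQ175 astrocytes the differences were fewer. At 6 months limma called 0 of 38 channel genes, with 3 at an unadjusted p below 0.05, beside 0.38% of all genes called. The lowest p was that of Kcnn3, at -0.47 ± 0.17 (limma adjusted p = 0.503). At 12 months 3 of 38 were called, all lower, beside 5.9% of all genes called and 1.58% called lower. The median of the 38 was -0.23, and that of all genes 0.02.

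The 3 genes were also lower in R6/2 astrocytes at 12 weeks. Kcnn2 was at 11, 10.81, 10.92 and 10.99 in zQ175 samples 30 to 33 and at 11.66, 11.66, 11.57 and 11.38 in WT samples 34 to 37. The groups lay apart, at -0.64 ± 0.10 (limma adjusted p = 0.00154). Kcnj14 was at 7.66, 8.38, 7.74 and 7.95 against 8.63, 8.73, 9.02 and 8.68, with zQ175 sample 31 nearest to WT, at -0.83 ± 0.16 (limma adjusted p = 0.00609). Kcnma1 was at 9.91, 9.58, 9.72 and 9.74 against 10.47, 10.24, 10.01 and 10.04, at -0.45 ± 0.12 (limma adjusted p = 0.0364). That call of Kcnma1 was lost with the mean of its probe sets (-0.29), with that endothelial and mural marker covariate (-0.43, limma adjusted p = 0.0549), and without any of zQ175 samples 27, 31, 32 and 33 or WT samples 34 and 35 (-0.51 to -0.36). Kcnk5 was at -0.16 ± 0.32 in zQ175 and not called. For no channel gene did the effect at 12 months differ from that at 6 months at an adjusted p below 0.05 (limma, 2 of 38 at an unadjusted p below 0.05, beside 0.00808% of all genes called).

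**Figure D3:**
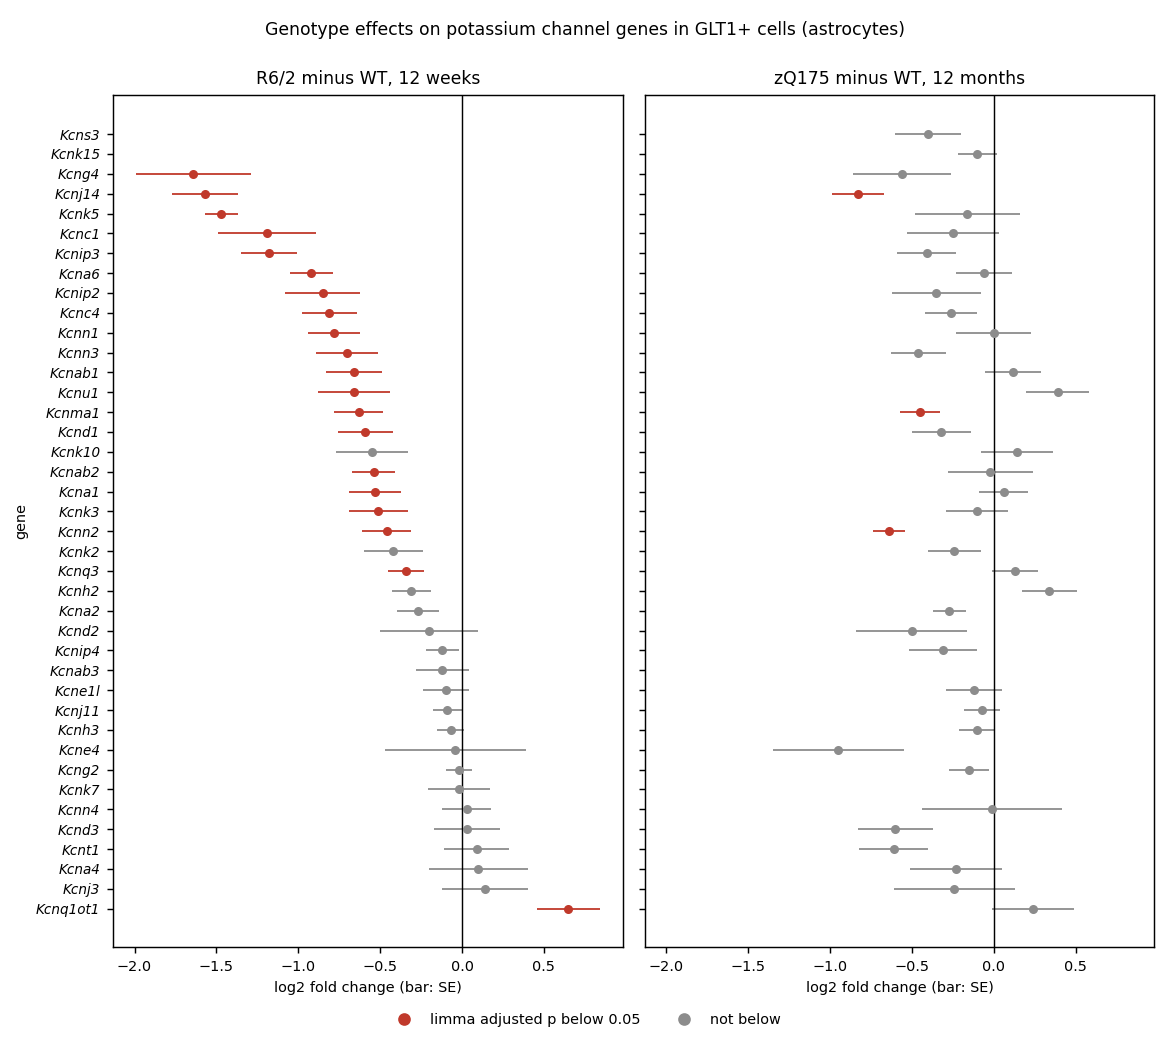
Log2 fold changes in astrocytes with their SE for R6/2 at 12 weeks (left) and zQ175 at 12 months (right), with called genes in red. On the left 19 red points lie below 0 and Kcnq1ot1 above it, and on the right Kcnj14, Kcnn2 and Kcnma1 are red and below 0, and a gene without a point was not tested there.

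Microglia showed few differences in channel genes. In R6/2 microglia at 6 weeks limma called 0 of 29 (4 at an unadjusted p below 0.05), beside 0.41% of all genes. At 12 weeks 1 of 29 was called, lower, beside 6.08% of all genes called and 3.56% called lower. This was Kcnk12, the gene of the two-pore-domain subunit THIK-2, which carries little current by itself. It was at 6.37, 6.32, 6.47, 6.63 and 6.66 in WT and between 5.94 and 6.08 in the 6 R6/2 samples (median 5.98). The groups did not overlap, and the log2 fold change was -0.50 ± 0.09 (limma adjusted p = 0.00167). The call held without each array in turn (-0.54 to -0.46), with a marker covariate and without WT samples 12 and 20. It also held with the mean of probe sets, but Kcnk12 has only 1 probe set, so its estimate could not change there. Kcnk6, the gene highest in microglia, was at 11.52 to 11.89 in WT and 11.57 to 11.94 in R6/2. The change of effect between 6 and 12 weeks was called by limma for 0 of 29 (5 at an unadjusted p below 0.05), beside 0.251% of all genes.

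In zQ175 microglia limma called 0 of 31 at 6 months, and 0 had an unadjusted p below 0.05, beside 0.0082% of all genes. At 12 months 3 of 31 were called, 2 higher and 1 lower, beside 3.15% of all genes called, 2.8% higher and 0.344% lower. Kcnk6 was at 10.99, 10.85, 11.33 and 10.99 in zQ175 and at 11.40, 11.45, 11.63 and 11.71 in WT, so the groups lay apart, at -0.51 ± 0.11 (limma adjusted p = 0.0247). Kcna1, a Kv pore of axons, was at 8.83, 8.70, 9.36 and 9.32 against 6.45, 8.24, 8.16 and 7.74, at 1.41 ± 0.36 (limma adjusted p = 0.0463). Kcnq3 was at 6.95, 7.72, 7.90 and 7.55 against 4.62, 6.58, 6.42 and 6.71, at 1.45 ± 0.36 (limma adjusted p = 0.0424), and WT sample 34 was far below the others.

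Oligodendrocyte markers were at 11.19 to 11.34 in these zQ175 microglia and at 9.24 to 10.93 in the WT microglia, with 2 of 9 called higher (median 0.85). With their mean as a covariate, Kcna1 was at 0.30 (limma adjusted p = 0.886), Kcnq3 at 0.41 (limma adjusted p = 0.86) and Kcnk6 at -0.61 (limma adjusted p = 0.246), and 0 genes of any kind were called (384 without the covariate). The groups do not overlap in that mean at 12 months, so it and the genotype cannot be told apart. Without zQ175 sample 31, whose microglia held endothelial and progenitor markers, or without zQ175 sample 33, none of the 3 was called. The call of Kcnk6 was ended by leaving out any of zQ175 samples 30, 31 and 33 and WT samples 36 and 37 (-0.60 to -0.44). Those of Kcna1 and Kcnq3 were each ended by 12 of the 16 arrays left out in turn, in both by WT samples 23, 24 and 25 and zQ175 samples 26, 28, 29, 31, 32 and 33, for Kcna1 also by zQ175 sample 30 and WT samples 34 and 37, and for Kcnq3 also by WT samples 22 and 36 and zQ175 sample 27. Their estimates ranged from 1.01 to 1.60 and from 0.96 to 1.66. The change of effect between 6 and 12 months was called for 0 of 31 by limma (5 at an unadjusted p below 0.05), beside 0% of all genes.

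The R6/2 negative fraction of 6 weeks had 1 called gene among 37 channel genes tested, beside 0.377% of all genes called and 0.0321% called lower. It was again Kcnk5, lower, at 7.62, 7.12, 7.69, 7.11 and 7.43 in WT and at 6.19, 6.74, 6.22, 6.54 and 6.64 in R6/2. No values overlapped, at -0.93 ± 0.20 (limma adjusted p = 0.0414). The adjusted p was near the threshold, and 13 of 21 arrays left out in turn ended the call, namely WT samples 1 to 5, 14 and 20 and R6/2 samples 6, 8, 9, 10, 13 and 15, with estimates from -1.0 to -0.86. With the astrocyte markers as a covariate the estimate was -1.08 (limma adjusted p = 0.00704). At 12 weeks Kcnk5 was lower there too, at -0.63 ± 0.19, a call that ended without WT sample 18 (at the least -0.47).

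At 12 weeks 20 of 37 were called in the negative fraction, 13 higher and 7 lower, beside 26.2% of all genes called, 15.5% higher and 10.7% lower. The median of the 37 was 0.11. Without the filter on dim genes, 24 of all 79 were called, beside 20.1%. Without overlap between the groups were 7 of the 20, or 35%, beside 35.2% of all genes called. Kcnd2, with the lowest p, was at 5.31, 4.46, 3.86, 4.34 and 4.89 in WT and between 7.57 and 9.35 in R6/2 (median 8.91). The groups lay more than 2 apart, with a log2 fold change of 4.16 ± 0.37 (limma adjusted p = 7.86e-08). All 5 WT values lay under the limit of 5.60, so this size is approximate, and with values raised to the limit the difference was 3.13. At 6 weeks the WT values of Kcnd2 were between 5.62 and 7.30 and the R6/2 values between 6.95 and 8.47, at 0.94 ± 0.38 (limma adjusted p = 0.598). WT samples were thus lower at 12 than at 6 weeks and R6/2 samples on average higher, and the difference between the effects was 3.23 ± 0.53 (limma adjusted p = 0.00102). The effects at both ages were fitted together, and change with age within a genotype was not tested.

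Kcnmb4, the BK channel β4 subunit of the brain, was at 5.87, 5.29, 4.96, 6.26 and 5.99 in WT and between 6.84 and 8.71 in R6/2 (median 7.58), without overlap, at 2.07 ± 0.26 (limma adjusted p = 5.63e-06). Kcnma1, the pore it joins, was higher by 1.27 ± 0.20. Kcnj3, the G-protein-gated rectifier GIRK1, was at 3.87 to 6.84 in WT and at 7.09 to 7.72 in R6/2 (median 7.45), also without overlap, at 2.07 ± 0.34 (limma adjusted p = 0.000129), or 1.55 with raised values. Kcnc4 (1.60 ± 0.31), Kcna2 (1.32 ± 0.31), Kcnd3 (0.54 ± 0.19), Kcnq3 (0.69 ± 0.19), Kcnq5 (1.31 ± 0.30), Kcnt1, the sodium-activated channel Slack (0.77 ± 0.14), Kcnu1 (1.35 ± 0.31), Kcne1l (0.91 ± 0.28) and Kcnip3 (0.76 ± 0.26) were the other higher genes. The second probe set of Kcnc4 gave 0.19 ± 0.12 and that of Kcnip3 0.21 ± 0.20, and the 3 probe sets of Kcnt1 gave between 0.77 and 2.22.

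Of the 7 lower genes of the negative fraction, 5 were among those highest there in WT (Kcnk3, Kcnq1, Kcnj12, Kcnab1 and Kcnab2). Kcnk3 was at 9.19, 9.44, 9.67, 9.77 and 9.32 in WT and between 7.60 and 8.10 in R6/2 (median 7.92), without overlap, at -1.62 ± 0.19 (limma adjusted p = 2.49e-06). Its other probe set above the limit gave -0.22 ± 0.10. Kcnq1, the channel Kv7.1, was at 6.79 to 7.84 in WT and 5.63 to 6.52 in R6/2 (-1.46 ± 0.26, without overlap), and Kcnj12, the inward rectifier Kir2.2, at 6.90 to 7.67 and 5.75 to 6.96 (-1.23 ± 0.21, with R6/2 sample 21 within the WT range). Kcnmb1, the BK channel β1 subunit of smooth muscle, was at -1.16 ± 0.37, and Kcnab1 and Kcnab2 at -0.70 ± 0.18 and -0.81 ± 0.24. The difference from 6 weeks was called for 4 of 37, beside 4.25% of all genes called, 3.77% higher and 0.473% lower: Kcnd2, Kcnmb4 (1.53 ± 0.38), Kcnk3 (-1.20 ± 0.27) and Kcnj12 (-1.07 ± 0.30). Without R6/2 sample 11, 9 were called in that comparison, the 4 among them. The call of Kcnj12 there was ended by 16 of 21 arrays left out in turn (-1.22 to -0.97), all but R6/2 samples 7, 11, 19 and 21 and WT sample 12.

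**Figure D4:**
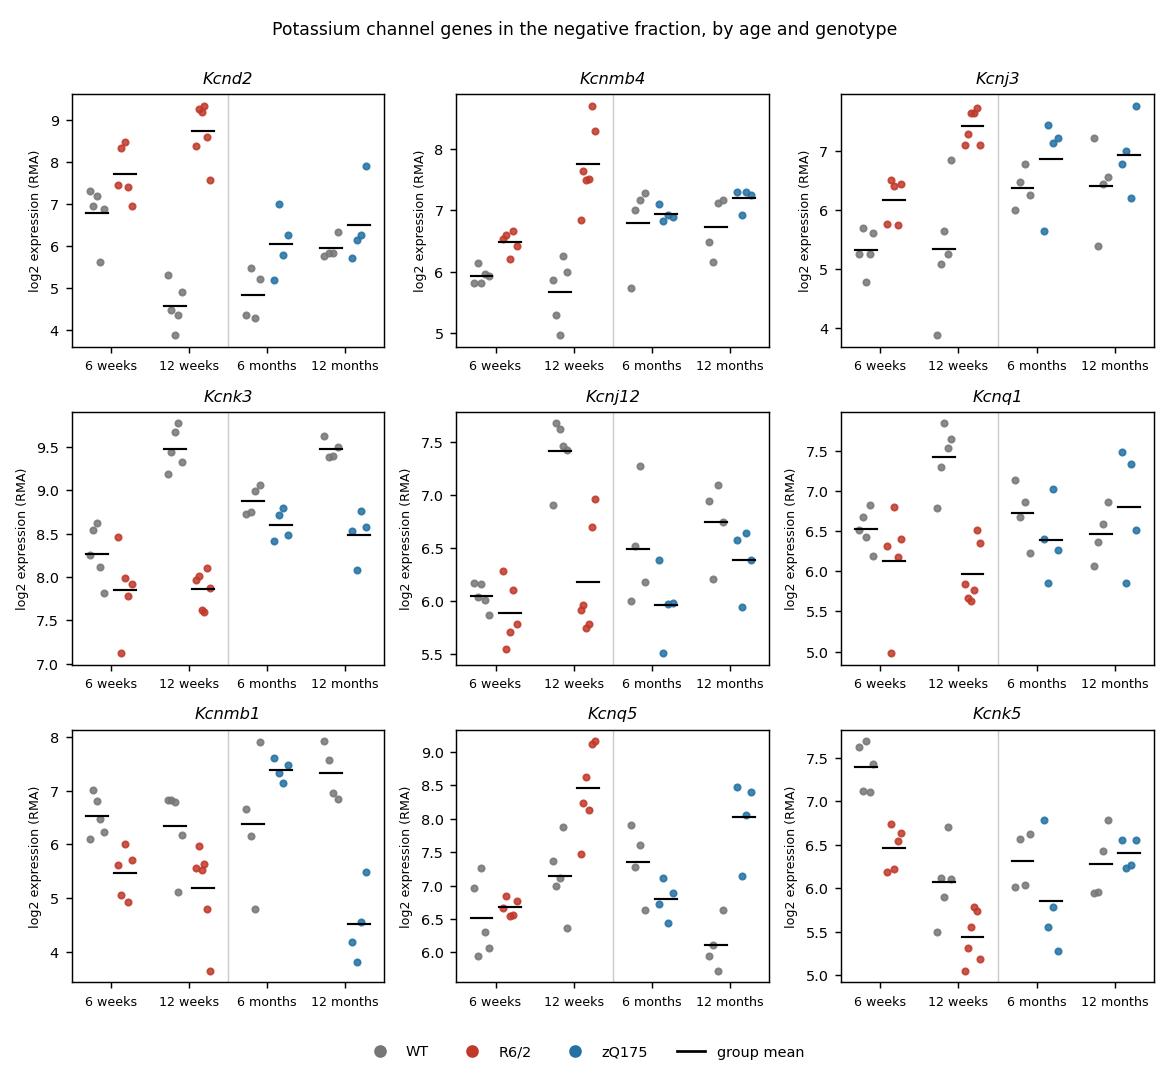
Log2 expression of 9 channel genes in the negative fraction by age (each point a sample, black lines group means). At 12 weeks the R6/2 samples lie above all WT samples for Kcnd2, Kcnmb4 and Kcnj3 and below all of them for Kcnk3 and Kcnq1, and at 12 months the zQ175 samples lie below all WT samples for Kcnk3 and Kcnmb1 and above them for Kcnq5.

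Astrocyte markers moved with this comparison. In the negative fraction at 12 weeks 10 of 11 astrocyte markers were called higher in R6/2 (median 1.99), among them Aqp4 (4.35) and Aldoc (4.01), and 4 of 12 endothelial and mural markers were lower (median -0.51). In WT, 9 of the 13 genes that were higher in these R6/2 cells were highest in astrocytes (Kcnd2, Kcnc4, Kcna2, Kcnip3, Kcne1l, Kcnma1, Kcnq3, Kcnt1 and Kcnu1). This stands beside 18 of all 36 channel genes tested in WT and 26% of all genes tested there. Another 2, Kcnq5 and Kcnd3, were highest in the WT negative fraction, and Kcnmb4 and Kcnj3 were not tested in the WT fit. Of the 7 lower genes, the 5 named above were highest in the WT negative fraction, beside 9 of 36 channel genes and 18.2% of all genes. The same shares among all genes higher or lower in this fraction are not given. Whether these counts are particular to channel genes was therefore not tested. With the mean of the astrocyte markers as a covariate, 0 channel genes were called, as against 88 of all genes in place of 3268. R6/2 and WT do not overlap in that covariate at 12 weeks, so it and the genotype cannot be told apart there. Kcnd2 was then at 2.60 (limma adjusted p = 0.115), Kcnj3 at 2.36, Kcnk3 at -1.54 (limma adjusted p = 0.111) and Kcnk5 at -1.56 (limma adjusted p = 0.0544). The estimates of Kcna2, Kcnc4, Kcne1l, Kcnip3, Kcnq3 and Kcnq5 turned in sign, to between -0.56 and -0.05.

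**Figure D5:**
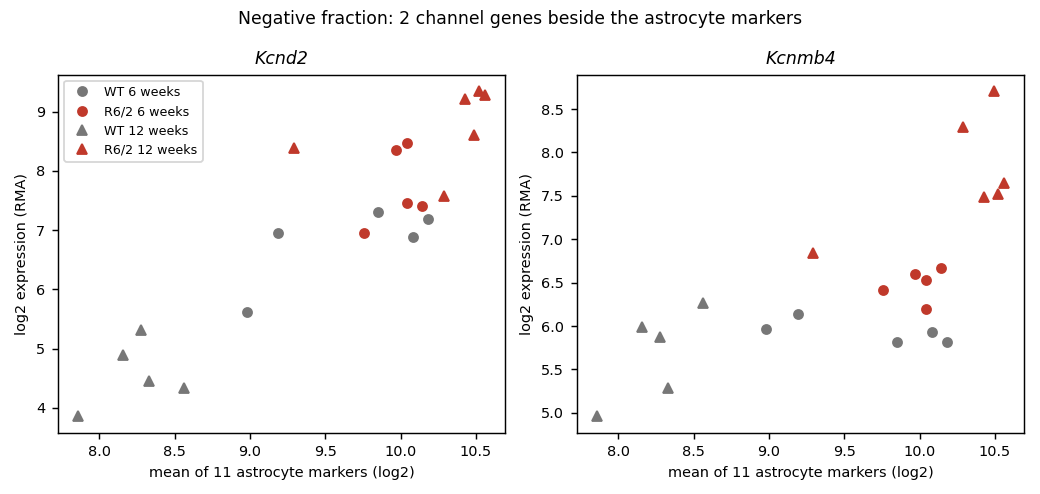
Log2 expression of Kcnd2 and Kcnmb4 in the R6/2 and WT negative fraction against the mean of 11 astrocyte markers in the same sample (points by age and genotype). R6/2 samples at 12 weeks hold both the high marker means (9.29 to 10.56) and the high values of both genes, and at 6 weeks R6/2 and WT overlap in the markers.

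Without 1 array at a time, between 18 and 23 channel genes were called in the negative fraction at 12 weeks. The calls of Kcnd2, Kcnmb4, Kcnj3, Kcnk3, Kcnq1 and Kcnj12 held each time. Those of Kcnip3 (R6/2 samples 15, 19 and 21, WT samples 12, 14, 16 and 20), Kcnd3 (R6/2 samples 13, 19 and 21, WT samples 12, 14 and 16), Kcnmb1 (WT samples 12, 14 and 16), Kcne1l (WT samples 12 and 14) and Kcnab2 (WT sample 20) were ended by 1 array, with estimates of 0.57 to 0.95, 0.44 to 0.65, -1.47 to -0.85, 0.74 to 1.14 and -1.0 to -0.67 in that order. Without WT samples 12 and 20 together, 19 were called, 16 of them among the 20. With the mean of the probe sets of a gene, 11 were called. Shares of all genes called are not given for these alternatives.

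Of 9 tested partners of potassium channels, 3 were called higher in this fraction and 1 lower (median 0.15). Dpp6, an auxiliary subunit of Kv4 channels, was at 2.46 ± 0.34 (limma adjusted p = 1.86e-05), Lgi1, a secreted protein linked to Kv1 channels, at 2.35 ± 0.30, and Adam22, its receptor, at 0.73 ± 0.13. Abcc9, the SUR2 subunit of ATP-sensitive channels in vascular cells, was at -0.69 ± 0.25. Of 7 tested sodium channel genes, 3 were higher and 2 lower, and of 17 tested calcium channel genes, 6 were higher and 3 lower.

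In the zQ175 negative fraction limma called 0 of 44 channel genes at 6 months (1 at an unadjusted p below 0.05), beside 0% of all genes. At 12 months 5 of 44 were called, 2 higher and 3 lower, beside 6.93% of all genes called, 3.85% higher and 3.08% lower. Kcnk3 was lower as in R6/2, at 8.53, 8.08, 8.76 and 8.58 in zQ175 against 9.62, 9.38, 9.40 and 9.50 in WT, without overlap, at -0.99 ± 0.15 (limma adjusted p = 0.00334). Its other probe set above the limit gave -0.06 ± 0.17. Kcnmb1 was at 4.18, 3.81, 4.55 and 5.49 against 7.92, 7.58, 6.96 and 6.85, at -2.82 ± 0.50 (limma adjusted p = 0.00835), or -1.79 with values under the limit of 5.54 raised to it, as all 4 zQ175 values were, and its other probe set gave -0.96 ± 0.17. Kcnq5, which carries part of the M-current with Kcnq3, was at 8.48, 7.15, 8.06 and 8.40 against 5.94, 6.11, 5.72 and 6.64, at 1.92 ± 0.31 (limma adjusted p = 0.00519). For Kcnmb1 and Kcnq5 too, the groups lay apart.

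Kcnd1 (1.13 ± 0.29) and Kcne4 (-0.52 ± 0.13) completed the 5. Both calls were ended by leaving out any of zQ175 samples 30, 31 and 32 or WT samples 34, 35 and 36, and that of Kcnd1 also by WT sample 37 (0.96 to 1.32 for Kcnd1 and -0.57 to -0.43 for Kcne4). Kcnd1 is a gene highest in microglia, and the microglia markers were at 10.01 in zQ175 sample 31 and at 6.23 at the lowest in this group, against 5.21 to 6.41 in WT. Astrocyte markers did not separate the groups here (9.03 to 9.83 in zQ175 and 8.45 to 10.22 in WT), and 0 of 11 were called (median -0.11). With their mean as a covariate 6 channel genes were called, the 5 among them. Other lists did move: 1 of 5 microglia markers was called higher (median 2), and 2 of 5 oligodendrocyte precursor markers were (median 0.72). The astrocyte covariate does not account for these lists. The change of effect from 6 to 12 months was called by limma for 0 of 44 (8 at an unadjusted p below 0.05), beside 0.0317% of all genes, with Kcnq5 at 2.47 ± 0.44 (limma adjusted p = 0.0765) and Kcnmb1 at -3.83 ± 0.71 (limma adjusted p = 0.0864). At 6 months that probe set of Kcnmb1 was at 1.01 ± 0.51. The other probe set, brighter in this fraction (mean 7.28 against 6.40), was at -0.31 ± 0.17, so the size of this change depends on the probe set. Of the partners, Dpp6 was higher here too, at 2.10 ± 0.35.

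Differences between fractions in the genotype effect were tested in 1 fit of all 3 fractions, which treats the fractions of 1 sample number as independent. For R6/2 at 12 weeks, 2 of 35 channel genes differed between astrocytes and microglia, beside 5.01% of all genes, 14 between astrocytes and the negative fraction, beside 12.9%, and 11 between microglia and the negative fraction, beside 15.8%. Kcnk5 (-1.49 ± 0.22, limma adjusted p = 6.12e-05) and Kcnj14 (-1.49 ± 0.23, limma adjusted p = 6.95e-05) were the 2 that differed from microglia, where Kcnk5 was at 0.01 ± 0.13 and Kcnj14 was below the level filter. Kcnk5 averaged 5.55 in those microglia, close to their limit of 5.43, so a fall there could hardly be seen. Between astrocytes and the negative fraction the effect on Kcnd2 differed by -4.36 ± 0.43, on Kcnc4 by -2.41 ± 0.30, on Kcnip3 by -1.95 ± 0.35 and on Kcnma1 by -1.90 ± 0.24. Of the 5 genes called lower in astrocytes and higher in the negative fraction, the difference was called for Kcnc4, Kcnip3, Kcnma1 and Kcnq3. The other, Kcnu1 (-0.66 and 1.35), was below the level filter in the fit of 3 fractions, so its difference was not tested. Kcnj14 (-1.17 ± 0.23), Kcnn3 (-0.82 ± 0.17) and Kcnk5 (-0.84 ± 0.22) had effects more negative in astrocytes than in negative cells. These differences touch the negative fraction, where the astrocyte markers moved. With the sample number as a replicate block, 4, 15 and 11 genes were called in the order above, and each difference named here kept its call. Kcnip3 (limma adjusted p = 0.0312) and Kcnn3 (limma adjusted p = 0.0356) then differed between astrocytes and microglia as well.

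For zQ175 at 12 months limma called 0 of 39 between astrocytes and microglia (12 at an unadjusted p below 0.05), beside 0.954% of all genes, 1 between astrocytes and the negative fraction, beside 1.31%, and 3 between microglia and the negative fraction, beside 4.2%. The effect on Kcnk3 differed between microglia and the negative fraction by 1.40 ± 0.23 (limma adjusted p = 0.00163), and without both libraries of zQ175 sample 31 by 1.18 (limma adjusted p = 0.00681). Kcnd1 (-1.45 ± 0.36 between astrocytes and the negative fraction, -1.33 ± 0.36 between microglia and the negative fraction) and Kcnj9, the G-protein-gated rectifier GIRK3 (-1.01 ± 0.23), were not called without those libraries (limma adjusted p = 0.0628, 0.108 and 0.0624). With the replicate block 1, 0 and 2 were called in the same order: Kcnk3 (limma adjusted p = 0.00515) and Kcnj9 (limma adjusted p = 0.0314) kept their calls, both differences of Kcnd1 lost theirs (limma adjusted p = 0.0804 and 0.0548), and Kcna1 differed between astrocytes and microglia by -1.35 (limma adjusted p = 0.0463).

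Across the 12 comparisons of genotype, 34 of the 58 tested genes were called at least once and 15 more than once, or 58.6% and 25.9%. Of all 14059 genes tested in any of them, 48% were called at least once and 15.6% more than once. Kcnk5 was called in 4, always lower and only in R6/2 astrocytes and the R6/2 negative fraction, in each at both ages. Kcnk3 was called in 3, always lower, and Kcnj14, Kcnn2, Kcnmb1, Kcnab1 and Kcnab2 in 2, always lower. Kcnma1 and Kcnq3 were called in 3 comparisons with both signs. Both ages were fitted together for each fraction and model, with a common spread, so these counts are not independent.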

How the data were processed

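RNA of sorted striatal cells was labelled with biotin and hybridised to Affymetrix mouse arrays. The authors deposited log2 expression for 45101 probe sets, and the submitters' processing notes name affy, RMA and limma. Versions, and which arrays were normalised jointly, were not given in the sources used here. RMA equalises the distributions of arrays, so a shift of all genes would not be seen, and array medians ran from 6.26 to 6.65. Depth does not apply to arrays, and the number of samples limits the precision. Probe sets with 1 symbol in the platform annotation (34958, against 932 with several and 9211 with none) named genes, and 34754 matched RefSeq of GRCm38.p6 with 0 symbols changed. A further 13 Kcn symbols of the gene lists were named by no probe set and are not analysed here.

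Values were used as deposited. limma 3.58.1 in R 4.3.3 (lmFit, eBayes, two-sided) was fitted to the 4 groups of a model in a fraction and to all WT arrays (age additive). For differences between fractions it was fitted to the 6 groups of 3 fractions at a model's later age. That last fit treats the fractions of 1 sample number as independent. A sample is a litter pool per the labels' protocols, so p-values measure the spread between pools, not between mice. The fits were tested on simulated data. The genes named were those called, at most 12 in each direction of a comparison. Where fewer than 2 were called, the genes of lowest p were named in some comparisons and not in others. At most 8 were named for each WT fraction, 6 for each difference between fractions and 4 in each direction of another list. Called genes past the 12, and a few uncalled ones, were named after their values were seen. Marker means are means over the markers of a list. Members, families and lists were chosen with earlier results of these data known. Alternatives were no filter on dim genes, the mean of probe sets, centring of arrays, a Y-linked covariate, a replicate block, leaving out arrays, and 3 chosen after seeing the data (a marker covariate, and leaving out WT samples 12 and 20 or zQ175 sample 31).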

Additional observations from a re-analysis of the deposited data

Results flagged for a closer look

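In 130 sets of 1 named gene in 1 group, 8 had a sample far from the others by Dixon's test. About 1 in 20 would have one by chance, so the count of 8 is near the chance share. They were Kcna6 in R6/2 astrocytes at 12 weeks (sample 19 at 9.14, next 9.70), Kcnk5 in WT astrocytes at 12 weeks (sample 14 at 6.69, next 6.99), Kcnn3 in astrocytes at 6 months (zQ175 sample 27 at 6.97, next 7.21, and WT sample 25 at 7.87, next 7.59), Kcnq3 in WT microglia at 12 months (sample 34 at 4.62, next 6.42), and in R6/2 negative cells of 12 weeks Kcna2 (sample 11 at 6.95, next 8.12), Kcne1l (sample 11 at 6.87, next 8.10) and Kcnt1 (sample 21 at 7.0, next 6.58). Sample 11 of the R6/2 negative fraction also had the lowest astrocyte marker mean of its group, 9.29.

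Genotype effects that differed between ages by limma were those of Kcnk5 in R6/2 astrocytes (-0.85) and of Kcnd2 (3.23), Kcnj12 (-1.07), Kcnk3 (-1.20) and Kcnmb4 (1.53) in the R6/2 negative fraction. Effects of R6/2 at 12 weeks that differed between astrocytes and microglia were those of Kcnk5 (-1.49) and Kcnj14 (-1.49). Between astrocytes and the negative fraction they were, of lowest p, Kcnd2 (-4.36), Kcnma1 (-1.90), Kcnc4 (-2.41), Kcnip3 (-1.95), Kcnj14 (-1.17) and Kcnn3 (-0.82). Between microglia and the negative fraction they were Kcnd2 (-4.23), Kcnk3 (1.5), Kcnmb4 (-2.38), Kcnma1 (-1.43), Kcnc4 (-1.70) and Kcnq1 (1.29). For zQ175 at 12 months they were Kcnd1 between astrocytes and the negative fraction (-1.45), and Kcnk3 (1.40), Kcnj9 (-1.01) and Kcnd1 (-1.33) between microglia and the negative fraction.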

How the results depend on the processing

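Counts of called channel genes moved by over 1.5 times under these alternatives. With the mean of a gene's probe sets they were 0 in R6/2 astrocytes and 0 in R6/2 negative cells at 6 weeks, 11 in the latter at 12 weeks, 1 for the zQ175 negative fraction between ages, and for differences of effect 7 (R6/2, microglia and negative), 1 (zQ175, astrocytes and microglia) and 0 (zQ175, microglia and negative). Without the filter on dim genes they were 3 in R6/2 microglia at 12 weeks and 59, 57 and 66 between WT fractions. All 79 genes were then tested, against 36 between WT fractions with the filter, so these counts are not comparable with the filtered ones. The shares of all genes called are not given beside the counts of this paragraph. With arrays centred they were 0 in R6/2 negative cells of 6 weeks and 0 for zQ175 between astrocytes and negative cells. With the marker covariate they were 0 in zQ175 microglia at 12 months and 0 in R6/2 negative cells at 12 weeks and between ages, where at 12 weeks Kcna2 (-0.08), Kcnc4 (-0.56), Kcne1l (-0.28), Kcnip3 (-0.16), Kcnq3 (-0.05), Kcnq5 (-0.17) and Kcnu1 (0.00) lost their direction. Without WT samples 12 and 20 the count was 0 for R6/2 astrocytes between ages. The causes were not tested.

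Leaving out 1 array at a time gave these ranges, for the younger age, the older age and the change between them: 1 to 2, 17 to 21 and 1 to 2 in R6/2 astrocytes, 0 to 1, 2 to 4 and 0 to 0 in zQ175 astrocytes, 0 to 0, 1 to 2 and 0 to 0 in R6/2 microglia, 0 to 0, 0 to 3 and 0 to 0 in zQ175 microglia, 0 to 1, 18 to 23 and 3 to 9 in the R6/2 negative fraction, and 0 to 0, 3 to 7 and 0 to 2 in the zQ175 one. For astrocytes against microglia, astrocytes against negative and microglia against negative they were 31 to 32, 32 to 33 and 31 to 32 in WT, 2 to 4, 12 to 17 and 7 to 13 for R6/2 effects, and 0 to 1, 0 to 2 and 2 to 4 for zQ175 effects.

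The replicate block by sample number gave 32, 33 and 31 calls between WT fractions, 4, 15 and 11 for R6/2 effects and 1, 0 and 2 for zQ175 effects. Of 111 pairs of same-numbered arrays, 61 correlated above 0.1 (-0.216 to 0.397) and 76 correlated best with their own number. Not every pair passed 0.1, and the labels do not state that a number marks 1 pool, although WT samples 12 and 20 lacked Y-linked expression in all 3 fractions. No genotype comparison within a fraction shares numbers between its groups.

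Over the named genes and all alternatives but the arrays left out singly, 425 results kept direction and side of the threshold, 65 lost the call, 1 gained it and 7 turned or reached 0. Genes whose mean lay under the dim limit were not tested, and a change in them was not detectable at this signal.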
